A study of Mus musculus with 6 samples.

Results

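One hour of imidazole was compared with no imidazole in mouse SYF cells that carried the Src mutant D386N/Y527F, on 1 array a side. Of 18193 genes on the array, 8376 had a GCOS signal of 100 or more on either array, and 2832 of these (33.8%) moved in 1 direction in both deposited summaries of the arrays and in every probe set of the gene. The direction was higher at 1 h for 747 genes (8.92%) and lower for 2085 genes (24.9%). A gene was called when its log2 change was also at least 0.32 in size in both summaries, which left 17 higher (0.203%) and 75 lower (0.895%). With 1 array a side no change in this comparison has a replicate error or a p-value, and "higher" and "lower" describe these arrays alone.

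SYF cells derive from mouse embryos that lack Src, Yes and Fyn. They had been stably transfected with Src D386N/Y527F or Src R388A/Y527F, were kept under hygromycin B, and were starved of serum overnight before the experiment; the 0 h cells of each line were starved in the same way and received no imidazole. The other 4 of the 6 arrays held the D386N/Y527F line after 12 h and the R388A/Y527F line at 0, 1 and 12 h; all treated cells received imidazole at 5 mM. The labels do not say how many clones or cultures stand behind a line, whether the 0 h cells received a mock change of medium, or whether the arrays of a time were prepared together. Culture, handling and imidazole therefore cannot be told apart in a pair of arrays.

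In both lines the Y527F change removes the tail tyrosine whose phosphorylation holds Src in its closed, inactive form. Imidazole is a small heterocycle that can stand in for a missing arginine side chain in the catalytic loop, so that Src R388A regains activity when it is added. D386N replaces the catalytic base of the kinase, an aspartate whose function imidazole does not restore, and this line serves as the control for imidazole acting on the cells by other routes. One hour is long enough for unstable transcripts, such as those of immediate early genes, to change, and short for stable ones. Several of the genes below encode short-lived regulators of this kind: Bhlhe40 and Egr1 are transcription factors that respond to many stimuli, and Txnip, a binding partner of thioredoxin that limits glucose uptake, follows glucose supply and energy state.

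The changes were small throughout. Over the 8376 genes the log2 change had a median of -0.02 and an SD of 0.22 in the GCOS signal, and a median of -0.08 and an SD of 0.15 in the second summary. The GCOS signal changed at least 2-fold upward for 12 genes and downward for 11, whereas the second summary did so for 1 and 2 genes. E2f5, a cell cycle transcription factor noticed after its values were seen, shows how far the summaries could part, with a log2 change of 3.49 in the GCOS signal and 0.36 in the second summary, and it was not called because its probe sets did not move alike. Dim genes supplied most of the calls: 2.84% of genes with a signal of 100 to 200 were called, against 0.716% at 200 to 500 and 0.235% at 500 and above, and the SD of the GCOS change fell over these classes from 0.30 through 0.21 to 0.16. Of the 92 called genes, 61 (66.3%) had a single probe set, against 34.7% of all genes compared, so the demand that probe sets move alike was untested for them. Some array-wide measures of the 0 h and 1 h arrays were close, with 8103 and 8180 genes at a signal of 100 or more. The 3′ to 5′ ratios were 0.82 and 0.78 for Gapdh and 1.18 and 1.11 for actin. Other measures were further apart. The median signal was 29.6 at 0 h and 33.7 at 1 h, the lowest and the highest of the 6 arrays. Likewise 12459 and 12944 genes lay above the floor below which signals were not distinguished, again the fewest and the most. All 12 fibroblast markers had a signal of 100 or more, with summed signals of 36543.9 at 0 h and 36571.0 at 1 h. Of the markers of other cell types, none of 11 epithelial, 9 endothelial, 13 muscle and 6 adipocyte genes on the array reached it, and 1 of 9 haematopoietic (Csf1r) and 1 of 10 neural genes (Map2) did. Acta1, which encodes skeletal muscle actin, was not among those muscle markers and had a signal of 193.4 at 0 h. In bulk RNA, fewer cells with a transcript and less of it per cell cannot be told apart.

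**Figure D1:**
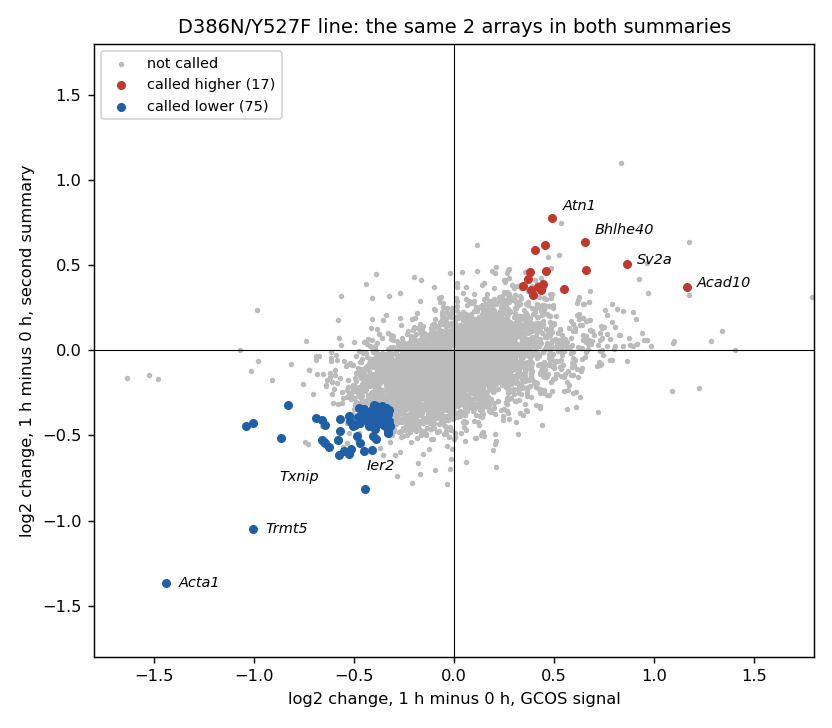
Log2 change of each gene from 0 h to 1 h in the D386N/Y527F line, in the GCOS signal (horizontal) and in the second summary (vertical), with 1 point a gene, 17 called higher in red, 75 called lower in blue and the rest in grey. Most points lie close to the origin, Acta1 and Trmt5 lie at the lower left and Bhlhe40 at the upper right; 3 grey genes fall outside the axes and are not drawn.

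The balance of higher and lower calls depended on how the arrays were scaled. As deposited, 18.5% of the 92 calls were higher. With each array set to the same median over genes with a signal of 100 or more, 44 genes were called higher and 31 lower, so that 58.7% were higher, and with quantile normalization 21 were higher and 51 lower, 29.2% higher. All 17 genes called higher and 31 of the 75 called lower kept their call after the median alignment. The share of higher calls thus moved with the scaling, and over all genes compared 17.9% moved higher and 15.5% lower after the alignment. Called under both of those scalings and with a pseudocount of 16 were 5 higher genes, Bhlhe40, Sv2a, Atn1, Vat1 and ND5, and 28 lower genes, among them Acta1, Trmt5, Txnip, Ier2, Xbp1, Gbp2 and Psmb9. Of the other genes named below, quantile normalization ended the calls of Acad10, Cacng7, Dclk2, F3, Flcn, Map1a, Ptprv, Wars2, Xrcc4, Atg4a, Mreg and Serpinb1a. The pseudocount ended those of Acad10, Cacng7, Dclk2, F3, Sspo, Stat2, Wars2, Xrcc4 and Relb, and median alignment those of Atg4a, Egr1, Mreg and Serpinb1a. Mtfmt, Mrm2, Mlycd, Adck1, Tbc1d22b, Zscan26 and Pex11a were not called under all of these settings either.

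Bhlhe40 (chromosome 6), a basic helix-loop-helix repressor of the circadian clock and of hypoxia-responsive genes, headed the genes called higher. Its GCOS signal was 215.8 at 0 h and 339.0 at 1 h, a log2 change of 0.65 (1.57-fold), and the second summary gave 224.5 and 348.6, a change of 0.63 (1.55-fold). In the R388A/Y527F line the signal was 141.9 at 0 h and 244.8 at 1 h. Both 1 h arrays were thus above both 0 h arrays for this gene. Of the 8 clock genes with a signal of 100 or more, 1 more moved in 1 direction: the signal of Per1, a repressor of the clock, was 177.7 and 187.2.

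Immediate early genes, which serum and growth factors induce within minutes without new protein synthesis, included the called genes Egr1 and Ier2, both lower. The signal of Egr1 (chromosome 18), a zinc-finger transcription factor, was 1732.4 at 0 h and 1347.2 at 1 h, and that of Ier2 (chromosome 8), a small nuclear regulator, was 671.7 and 469.3. Their log2 changes were -0.36 and -0.52 in the GCOS signal and -0.38 and -0.58 in the second summary. After median alignment Ier2 kept its call and Egr1 lost it, with -0.35 and -0.28 in the 2 summaries. Of 26 members compared, 8 moved higher (30.8%) and 6 lower (23.1%), beside 8.92% and 24.9% of all genes. After median alignment 11 moved higher (42.3%) and 4 lower (15.4%), beside 17.9% and 15.5% of all genes. The 2 calls among the 26 stand beside 0.895% of all genes called lower, and this was not tested. The median log2 change of the list was 0.04 in the GCOS signal and -0.05 in the second summary, beside -0.02 and -0.08 for all genes. Zfp36, which destabilises cytokine mRNAs, had the largest upward change of the named members, with a signal of 139.1 at 0 h and 191.5 at 1 h (log2 changes 0.46 and 0.30). It missed the call by the second summary, and it was called higher after median alignment (0.47 and 0.40) and after quantile normalization. None of 10 targets of ERK signalling was called, and 2 moved higher and 1 lower (4 and 1 after median alignment).

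Txnip (chromosome 3) was lower at 1 h, and it was among the brighter genes called. The signal of its main probe set was 854.8 at 0 h, 593.5 at 1 h and 849.0 at 12 h, and that of its other probe set was 426.5, 318.6 and 528.4. In both probe sets the 1 h array was the lowest of the 3. The 1 h change was -0.53 in the GCOS signal and -0.61 in the second summary. Txnip is the best-known target of MondoA, a glucose-sensing transcription factor, and of the 9 members compared in a list of MondoA and energy stress genes 7 (77.8%) moved lower, against 24.9% of all genes, and 0 higher. Txnip was the only one of them called. The other members named were Mlx, the partner of MondoA, with log2 changes of -0.13 and -0.22, Prkaa1, a catalytic subunit of AMP-activated kinase, with -0.19 and -0.12, Klf11 with -0.07 and -0.12 and Mlxip, which encodes MondoA itself, with -0.03 and -0.17. Of the members that did not move in 1 direction, Arrdc3 changed by 0.39 and -0.07 and Hbp1 by -0.01 and -0.08. The medians of the list were -0.07 and -0.12, and 0.00 and 0.01 in the R388A/Y527F line. After the median alignment 5 of the 9 moved lower and 1 higher, against 15.5% and 17.9% of all genes.

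Acta1 (chromosome 8), which encodes skeletal muscle actin and is a target of serum response factor, showed the largest change of the genes called lower. Its signal was 193.4 at 0 h and 71.4 at 1 h, a log2 change of -1.44 (2.71-fold), and 344.1 and 133.2 in the second summary, a change of -1.37 (2.58-fold). Of the 23 serum response factor and YAP targets compared only Acta1 was called. In all 3 moved higher and 7 lower, a balance that turned to 7 higher and 2 lower after median alignment, and the medians were -0.02 and -0.05. Actb, the cytoplasmic actin, had a signal of 7840.3 at 0 h and 7443.8 at 1 h. Thbs1, the matrix protein thrombospondin 1, was instead at 272.0 and 313.1, with log2 changes of 0.20 and 0.46. Tesk2 (chromosome 4), a kinase that phosphorylates the actin-severing protein cofilin, was called lower, with a signal of 165.6 at 0 h and 121.2 at 1 h.

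Promoters are shown for Acta1 and Txnip, the called genes of these 2 lists with a textbook regulatory element close to the start. Each line holds the 250 bases upstream of the transcription start from RefSeq (GRCm38.p6), read 5′ to 3′ on the strand of the gene, with the element in capitals. The window of Acta1 is chr8:123894776-123895025 on the minus strand, and that of Txnip is chr3:96557707-96557956 on the plus strand.
Acta1: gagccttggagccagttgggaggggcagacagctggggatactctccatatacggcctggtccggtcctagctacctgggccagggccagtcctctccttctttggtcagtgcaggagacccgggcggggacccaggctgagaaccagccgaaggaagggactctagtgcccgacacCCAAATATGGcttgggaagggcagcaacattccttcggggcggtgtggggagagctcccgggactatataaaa
Txnip: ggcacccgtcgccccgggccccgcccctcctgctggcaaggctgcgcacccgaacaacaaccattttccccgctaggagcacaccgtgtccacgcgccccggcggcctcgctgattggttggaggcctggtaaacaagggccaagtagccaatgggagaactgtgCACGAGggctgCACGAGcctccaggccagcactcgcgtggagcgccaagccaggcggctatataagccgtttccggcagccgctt

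The capitals in Acta1 mark a CArG box, the binding element of serum response factor, found 73 to 64 bases before the start. On both strands together a CArG box was present in 1.47% of 32851 windows of this length. The capitals in Txnip mark the letters CACGAG, present in 2 copies between 85 and 69 bases before the start and separated by 5 bases, an arrangement known as the carbohydrate response element of this gene. CACGAG was present in 5.37% of the windows, and 2 copies on 1 strand with this spacing were present in 1 of them (0.00304%), that of Txnip. The pattern searched was the exact Txnip element, so Txnip had to match it. Other forms of the paired element were not searched, so the share does not measure how rare such elements are. Such letters describe the promoter and were not tested as the source of either change. Of the 92 called genes, 71 had a promoter in the reference table.

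**Figure D2:**
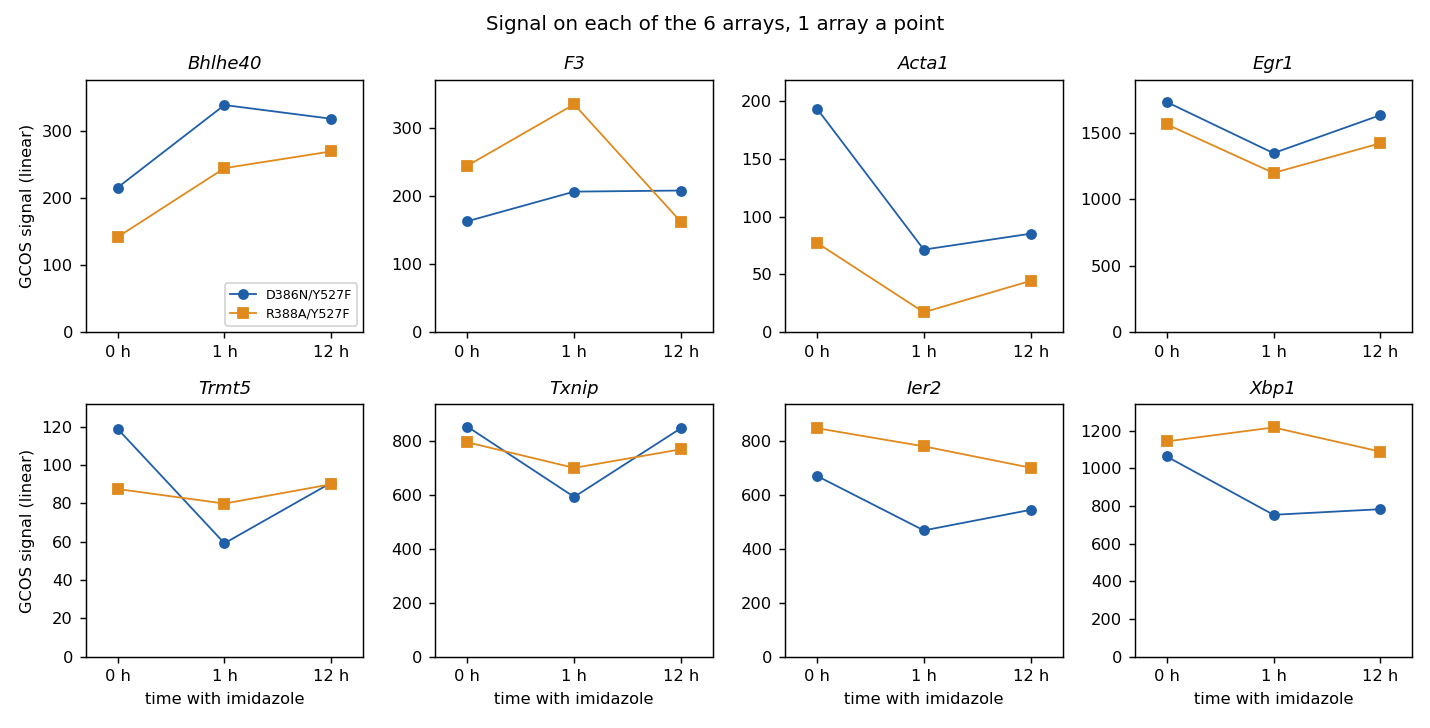
GCOS signal (linear, from 0) of 8 called genes on each of the 6 arrays, by time with imidazole, with 1 array a point, the D386N/Y527F line in blue circles and the R388A/Y527F line in orange squares; lines join arrays of 1 cell line. Bhlhe40, F3, Acta1 and Egr1 moved in the same direction at 1 h in both lines, whereas the 1 h arrays for Xbp1 moved apart.

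Genes of mitochondrial function, for which no list was fixed, were called in both directions. The probe set for ND5, a subunit of respiratory complex I that the mitochondrial genome encodes, was higher. Its signal was 1698.6 at 0 h and 2210.7 at 1 h, with log2 changes of 0.38 and 0.46, and it had the brightest signal of the named genes called higher. Wars2, the mitochondrial tryptophanyl-tRNA synthetase, was at 91.3 and 133.7, and Acad10, of the acyl-CoA dehydrogenase family, at 45.4 and 101.6. The change of Acad10 was 1.16 in the GCOS signal and 0.37 in the second summary, so the summaries did not give it 1 size. Called lower, and named after their values were seen, were Mtfmt, which formylates the mitochondrial initiator transfer RNA (log2 changes -0.35 and -0.44), Mrm2, a mitochondrial ribosomal RNA methyltransferase (-0.34 and -0.36), Mlycd, malonyl-CoA decarboxylase (-0.33 and -0.49), and Adck1, a mitochondrial kinase-like protein (-0.37 and -0.33). Their signals at 0 h were 125.1, 114.8, 123.7 and 165.7, and none of them kept its call under every scaling above. Trmt5 (chromosome 12), which methylates transfer RNAs next to the anticodon, was lower, with a signal of 118.9 at 0 h and 59.2 at 1 h and log2 changes of -1.01 and -1.05 (2.01-fold and 2.07-fold). Acta1 and Trmt5 were the 2 genes called at 2-fold in both summaries. Of the 23 genes of ribosome biogenesis and RNA modification compared, Trmt5 alone was called, and 2 moved higher and 6 lower, which turned to 5 and 3 after median alignment. Gar1, a protein of the particles that form pseudouridine, was at 682.2 and 564.7 (log2 changes -0.27 and -0.17).

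Interferon-stimulated genes had the lowest median of the 28 response lists. Of the 12 compared, 3 moved higher and 6 lower, beside 8.92% and 24.9% of all genes. After median alignment the counts were again 3 higher and 6 lower, beside 17.9% and 15.5% of all genes. The median log2 change was -0.22 in the GCOS signal and -0.20 in the second summary, beside -0.02 and -0.08 for all genes. Gbp2, an interferon-induced GTPase, was called lower with a signal of 168.5 at 0 h and 120.3 at 1 h, and Psmb9, a subunit of the immunoproteasome, with 224.0 and 157.7. Stat2, which carries type I interferon signals to the nucleus, was called higher, with 97.5 and 130.2. The list thus held calls in both directions, 1 higher and 2 lower, as deposited and after median alignment. As deposited, 0.203% of all genes were called higher and 0.895% lower, and the difference was not tested. Bst2, the antiviral protein tetherin, was at 239.3 and 197.4 (log2 changes -0.28 and -0.28), and Oas1a, an antiviral nucleotide polymerase, at 142.2 and 126.5 (-0.17 and -0.73). Igtp, an interferon-induced GTPase named by its rank among all genes, was called lower at 129.4 and 82.8. In the R388A/Y527F line the medians of this list were -0.19 in the GCOS signal and -0.13 in the second summary, beside -0.02 and -0.04 for all genes compared. Of the called members, Gbp2 was lower there too (-0.35 and -0.20). Psmb9 changed there by 0.11 and 0.04, and Stat2 by -0.55 and -0.58. At 12 h the D386N/Y527F signals of Gbp2 (162.2), Psmb9 (206.5), Bst2 (317.3) and Igtp (163.4) were all above their 1 h signals.

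In the lists of stress responses few genes were called. Xbp1, the transcription factor whose mRNA is spliced in the unfolded protein response, was lower with a signal of 1063.5 at 0 h and 753.8 at 1 h and log2 changes of -0.50 and -0.44. All 4 of its probe sets were lower, with GCOS changes from -0.50 to -0.11. The rest of that list was not called: 6 of 18 members moved lower and 1 higher (5 and 2 after median alignment), and Sdf2l1, a chaperone component of the endoplasmic reticulum, was at 439.3 and 361.7. None of 20 heat shock genes was called, with 1 moving higher and 5 lower (3 and 2 after median alignment) and medians of -0.10 and -0.10. Dnajb1, a co-chaperone of Hsp70, was at 1050.3 and 905.6. Of 17 ATF4 and amino acid response genes none was called, with 1 moving higher and 5 lower (1 and 1 after median alignment), and Ddit3, a transcription factor of prolonged stress, had changes of 0.26 and 0.26. Of 16 NRF2 and glutathione genes none was called either, with 2 moving higher and 3 lower (3 and 2 after median alignment). Gclm, the regulatory subunit of the enzyme that starts glutathione synthesis, was at 491.4 and 639.8 (0.38 and 0.19) and missed the size by the second summary.

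Relb, a subunit of the noncanonical NF-kB pathway, was called lower with a signal of 137.1 at 0 h and 107.8 at 1 h, and it was the only called gene of 16 NF-kB, cytokine and chemokine genes, of which 2 moved higher and 4 lower (2 and 3 after median alignment). The chemokine genes did not move as one. Ccl5 was at 153.8 and 124.0 (log2 changes -0.31 and -0.50) and Ccl7 at 190.3 and 226.1 (0.25 and 0.41). F3, which encodes tissue factor, the initiator of blood coagulation, was called higher at 162.9 and 206.5 (0.34 and 0.38).

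Flcn, which encodes folliculin, a regulator of nutrient signalling at the lysosome, was called higher with a signal of 270.2 at 0 h, 348.4 at 1 h and 443.8 at 12 h. It was the only called gene of 26 lysosome and autophagy genes. In that list 5 genes moved higher (19.2%) and 0 lower, beside 8.92% and 24.9% of all genes (9 and 0 after median alignment), and the medians were 0.01 and 0.00. Atp6v1a, a subunit of the proton pump of the lysosome, was at 1147.4 and 1355.1 (0.24 and 0.19), and Lamp1, a lysosomal membrane protein, at 3902.0 and 4174.0 (0.10 and 0.13). Atg4a, a protease that processes the autophagy proteins of the LC3 family and is not on that list, was called lower at 167.7 and 105.9.

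Sterol synthesis genes held no call, and of 20 compared 7 moved higher and 2 lower (11 and 2 after median alignment). Insig1, which retains the sterol sensor in the endoplasmic reticulum, was at 633.7 and 744.3, Lss, a cyclase of the pathway, at 233.4 and 277.0, and Ebp, an isomerase of the pathway, at 697.9 and 584.6. Hsd17b7, a reductase of the pathway named here for its size, changed by 0.35 and 0.46 and was not called because its probe sets moved in different directions. None of 24 genes of G2 and mitosis was called, with 8 moving lower (33.3%) and 0 higher, or 5 and 3 after median alignment, and Kif20a, a mitotic kinesin, was at 640.0 and 507.8. Among 17 hypoxia and glycolysis genes 7 moved lower (41.2%, beside 24.9% of all genes) and 1 higher, and after median alignment this turned to 2 lower and 4 higher. Tpi1, a glycolytic isomerase, was at 3938.6 and 3544.5. Bhlhe40 is also known as a hypoxia-responsive gene, and the other genes of that response were not called.

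Imidazole binds metal ions, and the zinc and metal response genes were therefore examined. Of 21 compared none was called, 1 moved higher and 2 lower (3 and 1 after median alignment), and the medians were 0.02 and -0.05. Mt2, a metallothionein that zinc induces, was at 1857.6 at 0 h and 1933.8 at 1 h, and its change was 0.06 in the GCOS signal and -0.23 in the second summary. Slc30a1, the zinc exporter that zinc also induces, had too low a signal for the comparison and is given because its values were seen to be low: its signal was 67.0 at 0 h, 23.8 at 1 h and 35.4 at 12 h, and 52.4, 25.9 and 27.0 in the second summary. In the R388A/Y527F line it was at 75.3, 52.3 and 33.6, and at 53.6, 37.4 and 28.2 in the second summary. A second probe set for Slc30a1 was at 20.9, 22.6 and 30.0, about the floor of 20.4 below which signals were not distinguished.

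No gene was called in the remaining lists as deposited. Moving higher and lower were 1 and 4 of 14 genes of pH and ion transport, 1 and 3 of 15 of the aryl hydrocarbon receptor, cytochrome P450 and heme, 3 and 1 of 17 glucocorticoid and FOXO targets, and 4 and 3 of 16 p53 targets. The counts were 2 and 4 of 20 genes of G1 and replication, 2 and 5 of 14 TGF-beta, BMP and Id genes, 2 and 1 of 6 Wnt and Notch targets, 5 and 3 of 20 fibroblast matrix genes, 1 and 2 of 12 lipogenesis genes, and 0 and 1 of 7 long noncoding RNAs. After median alignment the balance turned to 3 higher and 2 lower for the aryl hydrocarbon receptor, P450 and heme list and for lipogenesis, to 2 and 1 for G1 and replication, to 3 and 3 for pH and ion transport, and stood at 10 and 1 for fibroblast matrix genes. Over all genes compared, 8.92% moved higher and 24.9% lower as deposited, and 17.9% and 15.5% after median alignment. Tiparp, a target of the aryl hydrocarbon receptor, was at 145.9 and 181.5 (log2 changes 0.32 and 0.15). Cited2, a transcriptional coregulator, was at 1231.4 and 1544.2 (0.33 and 0.27), and it was called higher after median alignment (0.34 and 0.37). None of the 14 Src family genes and regulators moved in 1 direction as deposited, and 2 moved higher after median alignment. The probe set used for Src was at 58.4 at 0 h and 72.7 at 1 h, Yes1 was at 219.4 and 208.4, and Fyn was at 185.3 and 209.0; whether these probe sets read the deleted parts of Yes1 and Fyn or the transfected Src is not known here, so they do not check the genotype.

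**Figure D3:**
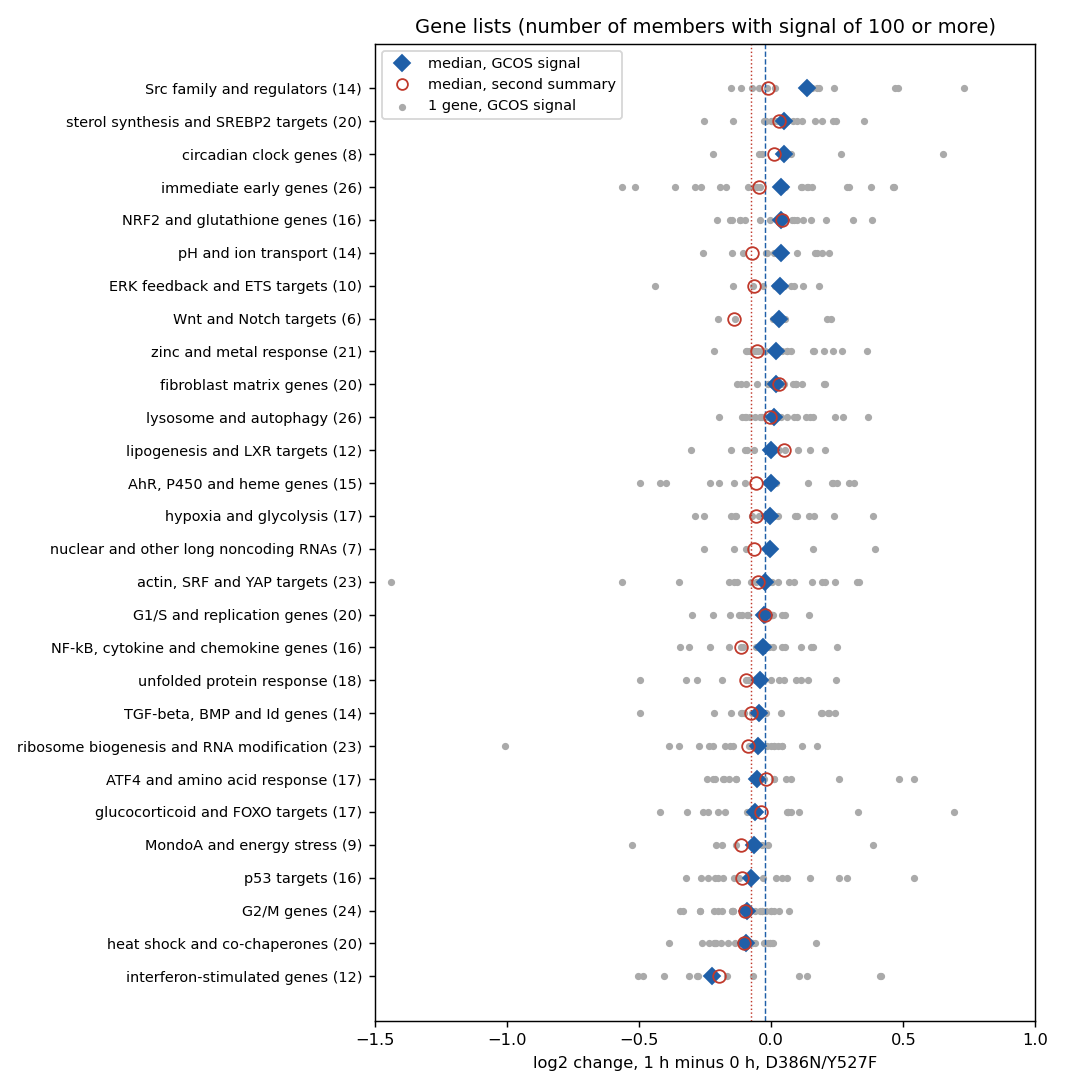
Log2 change from 0 h to 1 h in the D386N/Y527F line for 28 gene lists, with the number of members compared in brackets, 1 grey point a gene (GCOS signal), blue diamonds for the list median in the GCOS signal and open red circles for that in the second summary; the dashed and dotted lines mark the medians of all 8376 genes, -0.02 and -0.08. The interferon-stimulated genes lie lowest, with medians of -0.22 and -0.20, and Acta1 and Trmt5 are the points farthest to the left.

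The remaining leading genes spanned unrelated known roles. Called higher were Sv2a, a synaptic vesicle glycoprotein (74.9 at 0 h and 136.3 at 1 h), Atn1, a transcriptional corepressor (189.1 and 265.7), Map1a, a microtubule-associated protein (211.0 and 290.0), and Vat1, a vesicle membrane protein (457.8 and 623.4). Vat1 was higher in all 3 of its probe sets. Also higher were Sspo (69.1 and 109.1), Ptprv, a receptor-type phosphatase (74.2 and 101.5), Cacng7, a calcium channel subunit (85.6 and 113.1), Xrcc4, a DNA end-joining factor (74.3 and 100.5), and Dclk2, a doublecortin-like kinase (86.0 and 112.2). These 5 were dim genes, the highest signal among them being 113.1. Called lower were Ehd3, a protein of endocytic recycling (105.5 and 70.8), Radil, an effector of the GTPase Rap (113.6 and 73.7), Cbr2, a carbonyl reductase (105.9 and 72.4), and Mir22hg, the host transcript of miR-22 (109.8 and 73.3). Bbs2, a subunit of the BBSome of cilia, was at 125.3 and 68.8, Tmem120a at 306.6 and 206.5, and Pacrgl at 134.5 and 97.0.

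Calls lay close to the thresholds at their lower end. By the smaller of the 2 folds, F3 (1.268) and Tbc1d22b (1.253) were the last genes called higher and Atxn2l (1.245) and Pcsk4 (1.242) the first not called. Of the lower genes Zscan26 (1.251) and Pex11a, which lay at the threshold itself, were inside, and Rbmx2 (1.248) and Pole2 (1.248) outside. By signal, Xrcc4 (100.5) and Ptprv (101.5) were just inside on the higher side, and St6galnac1 (98.8) and Ccnk (98.8) just outside. On the lower side Zfp87 (101.0) and Ehd3 (105.5) were inside, and Gpha2 (99.9) and Lysmd1 (97.4) outside.

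The R388A/Y527F arrays at 0 h and 1 h share no array with the D386N/Y527F pair and hold the same imidazole treatment, together with a Src that imidazole can restore. By the same rule that pair gave 20 genes higher (0.239%) and 169 lower (2.02%) of 8355. Of the 17 genes called higher in the D386N/Y527F line, 3 (17.6%) were higher by at least 0.32 on the log2 scale in both summaries in the R388A/Y527F line, against 0.788% of all genes compared, and 5 (29.4%) were lower there by as much, against 3.57%. Of the 75 called lower, 5 (6.67%) were lower by that size in the R388A/Y527F line, against 3.57%, and 2 (2.67%) were higher by it, against 0.788%. Each of these shares rests on 2 to 5 genes and was not tested. By sign alone in both summaries, 5 of the 17 (29.4%) were higher in the other line and 11 (64.7%) lower, beside 26.3% and 43.8% of all genes. Of the 75, 31 (41.3%) were lower and 17 (22.7%) higher. By the whole call rule, 2 of the 17 (11.8%) were also called higher in the R388A/Y527F line and 3 of the 75 (4.0%) also called lower, beside 0.239% and 2.02% of the genes compared there.

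In the probe set used, 8 genes moved the same way in both lines by at least 0.32 (log2) in both summaries. These were Bhlhe40, Sv2a and F3, higher, and Acta1, Bbs2, Tesk2, Egr1 and Relb, lower. In the R388A/Y527F line the log2 change of Bhlhe40 was 0.79 in the GCOS signal and 0.73 in the second summary, and that of F3 was 0.45 and 0.64. Egr1 was at 1564.5 and 1198.4 there, changes of -0.39 and -0.55, so that both 1 h arrays lay below both 0 h arrays. Tesk2 changed by -0.62 and -0.52, Bbs2 by -0.53 and -0.42, and Relb by -0.44 and -0.44. Acta1 was at 77.3 at 0 h and 17.2 at 1 h, the latter below the floor of 20.4, and the second summary gave -0.40, so the sizes of that change differed between summaries. Sv2a was at 69.6 and 87.0, exactly at the threshold, with 0.79 in the second summary. Neat1, a nuclear long noncoding RNA noticed after its values were seen, was at 805.3 and 1057.7 in the D386N/Y527F line and 531.5 and 715.3 in the other, but the weaker of its 2 probe sets was lower at 1 h (64.6 and 38.3), which kept it from a call.

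The other called genes did not show this in the probe set used. Trmt5 changed by -0.13 in the GCOS signal and 0.13 in the second summary in the R388A/Y527F line, Xbp1 by 0.09 and 0.07, Ier2 by -0.12 and -0.16, and Txnip by -0.18 and -0.31. The other probe set of Txnip fell further in that line. It was at 395.8 at 0 h and 277.5 at 1 h in the GCOS signal, and at 549.2 and 339.6 in the second summary. In 7 genes the 2 lines moved in opposite directions by at least 0.32 (log2) in both summaries, and these were Atn1, Vat1, ND5, Stat2, Dclk2, Mreg and Serpinb1a. The signal of ND5, for example, was 1515.0 at 0 h and 1061.0 at 1 h in the R388A/Y527F line. The difference between the lines was not tested, since each holds 1 array a time.

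**Figure D4:**
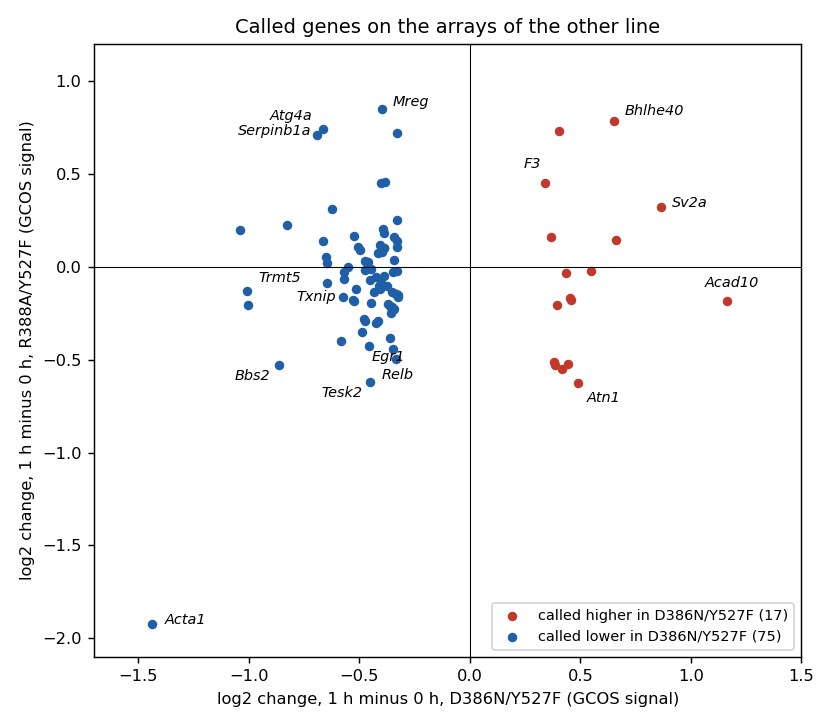
Log2 change from 0 h to 1 h (GCOS signal) of the 92 genes called in the D386N/Y527F line, in that line (horizontal) and in the R388A/Y527F line (vertical), with genes called higher in red and lower in blue. Bhlhe40 lies at the upper right and Acta1 at the lower left, Egr1, Relb, Tesk2 and Bbs2 lie below 0 on both axes, and Atn1, Mreg and Serpinb1a lie in the opposite quadrants.

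An additive model of line and time over the 6 arrays, fitted with limma, took the 2 lines as replicates of a time and left 2 residual degrees of freedom. It contains the D386N/Y527F pair, so it is not a separate test of genes chosen from it. Of 8551 genes none (0.0%) had an adjusted p under 0.05 by limma for 1 h against 0 h. An unadjusted limma p under 0.05 was found for 294 genes (3.44%) in the GCOS signal and 448 (5.24%) in the second summary. Bhlhe40 ranked 2nd in the GCOS signal, with a log2 change of 0.72 (SE 0.13) and an adjusted p of 0.9991 by limma, and 1st in the second summary, with 0.68 (SE 0.10) and an adjusted p of 0.8532 by limma. Egr1 had a change of -0.37 (SE 0.09) and ranked 14th and 3rd, and Txnip had a change of -0.35 (SE 0.11) and ranked 44th and 19th. No change at 1 h common to both lines was thus shown at this number of arrays.

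The 12 h array of the D386N/Y527F line was compared with the same 0 h array, so its changes share that array with those at 1 h and are given only side by side. The signal of Bhlhe40 was 318.5 at 12 h, against 339.0 at 1 h, and that of Acta1 was 85.2, against 71.4. Egr1 stood at 1633.4 at 12 h, Txnip at 849.0, Ier2 at 545.8, Trmt5 at 90.8 and Xbp1 at 783.6. Txnip was at 12 h close to its 0 h signal, whereas Acta1, Bhlhe40 and Xbp1 were nearer their 1 h signals.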

How the data were processed

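The authors processed the arrays (Affymetrix Murine Genome 430 2.0) with GCOS 1.3, per the submitters' processing notes, and deposited linear intensity values: the GCOS signal, scaled so that the mean without the extreme 2% at each end was 150.0 on every array, and a second summary of the same arrays whose method is not given in the sources used here. Values below the 40th percentile of an array set's signals (20.4 in the GCOS signal and 11.3 in the second summary) were set to it before log2 changes were taken. Of 45101 probe sets, 34945 had 1 gene symbol, 932 several and 9160 none; each gene used the probe set of the most specific suffix and then the highest mean signal, and symbols checked through Entrez against RefSeq for 34741 probe sets changed in 0. The call rule was a GCOS signal of 100 or more, 1 direction in both summaries and all probe sets, and a log2 change of at least 0.32 in both.

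Named genes were the 15 called higher and the 15 called lower with the largest smaller change of the 2 summaries, without clone names; up to 5 members of each gene list; the zinc list; Src, Yes1 and Fyn; and genes that moved oppositely in the other line. Other genes are marked or follow from a count, and Slc30a1, Neat1, E2f5, Hsd17b7, Mtfmt, Mrm2, Mlycd and Adck1 were chosen after their values were seen. The comparison and the gene lists were chosen with earlier results of these data known. limma 3.58.1 (R 4.3.3) fitted line and time with a trended prior and Benjamini-Hochberg adjustment. The number of arrays, 1 a group, limits the precision. The scripts were tested on simulated data.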

Additional observations from a re-analysis of the deposited data

Results flagged for a closer look

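In 7 of the called genes the D386N/Y527F and R388A/Y527F lines moved in opposite directions at 1 h by at least 0.32 on the log2 scale in both summaries; with 1 array a time in each line the difference between the lines was not tested. The values are the D386N/Y527F log2 change minus the R388A/Y527F log2 change in the GCOS signal. The difference was 1.12 for Atn1 (changes of 0.49 and -0.63), 0.97 for Vat1 (0.45 and -0.53), 0.89 for ND5 (0.38 and -0.51), 0.97 for Stat2 (0.42 and -0.55) and 0.91 for Dclk2 (0.38 and -0.53). It was -1.25 for Mreg (-0.40 and 0.85) and -1.40 for Serpinb1a (-0.69 and 0.71). In the second summary the same differences were 1.52 for Atn1, 1.00 for Vat1, 1.40 for ND5, 0.95 for Stat2, 0.73 for Dclk2, -0.83 for Mreg and -0.84 for Serpinb1a. The signal of Serpinb1a in the R388A/Y527F line was 7.4 at 0 h, below the floor of 20.4, so its change there and the difference between the lines are bounds in the GCOS signal.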

How the results depend on the processing

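The counts of called genes, 17 higher and 75 lower, depended on the thresholds. They were 60 and 121 with a signal minimum of 50, 8 and 22 with 200, 43 and 115 with 1 probe set a gene, 44 and 31 with the arrays aligned on their median, and 8 and 48 with a pseudocount of 16. They were 1 and 2 at 1.5-fold, 0 and 2 at 2-fold, 148 and 246 with the size taken from the GCOS signal alone, 33 and 219 with the second summary alone, and 132 and 257 when the 12 h array served as the reference. Quantile normalization gave 21 and 51, and a direction asked only of probe sets above the floor gave 21 and 83. Of 810 recomputed changes of named genes 778 moved by less than the SD over genes and 32 moved by more. Signs could still turn: Actb changed by -0.05 in the second summary as deposited and by 0.05 after median alignment. Flcn, higher at 1 h against 0 h, was lower against the 12 h array (348.4 at 1 h and 443.8 at 12 h). All 116 recomputed list medians stayed within the SD. That SD (0.22 in the GCOS signal) is of single genes, whereas medians of the response lists ran only from -0.22 to 0.14, so it is a loose bound for them. limma called 0 genes under each of its 8 alternatives, with 207 to 690 genes at an unadjusted p under 0.05. The limma model already holds the cell line as a block, which pairs the times within a line; the pair of arrays by itself allows no fit. Signals below 200 carried 62 of the 92 calls, where the spread between the arrays was widest.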
